A study of Arabidopsis thaliana with 18 samples.

Results

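The heterochromatic knob of chromosome 4 of Arabidopsis thaliana was taken as the stretch from 1.6 to 2.4 Mb of the TAIR10 assembly, cut into consecutive 1 kb tiles. It held 800 of the 119149 nuclear 1 kb tiles and 97 of the 33052 nuclear loci of the count tables, and the rule for its members uses position and no measured value. The neighbouring stretch from 0.8 to 1.6 Mb, with 800 tiles and 263 loci, was the euchromatic reference. DNA methylation was read by MethylC-seq (whole-genome bisulfite sequencing) in leaves of unstressed wild type (WT, ecotype Col-0) and strs2 plants, 3 of each, and polyadenylated RNA was sequenced in 12 WT libraries. All plants were 3 weeks old, and true leaves 4 to 9 were harvested. According to the methods each sample was an independent plant, and strs2 was 1 T-DNA insertion line in the Col-0 background that disrupts STRS2, a DEAD-box RNA helicase. The mRNA-seq groups, with 3 plants each, were naive plants (N), naive plants given a triggering exposure to excess light (N+T), plants primed by a week of recurring excess light (P), and primed plants that were then triggered (P+T). Excess light (EL) was 1000 µmol photons per square metre and second, for 1 hour per exposure. N-r3 and N+T-r3 were left out of the expression tests, as in the study, because they did not group with their treatment. The fit thus held 10 libraries. A locus passed the expression filter where 3 or more of the 12 libraries exceeded 1 CPM (counts scaled to the library total).

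The knob is a block of heterochromatin that lies on the short arm of chromosome 4, apart from the pericentromere, in the Col-0 accession. Plant DNA is methylated at cytosines in CG, CHG and CHH context, where H is A, C or T. CG methylation is copied at replication by MET1 and also occurs in the bodies of many transcribed genes. CHG methylation is kept up by CMT3 together with the histone H3 lysine 9 methyltransferases KYP, SUVH5 and SUVH6, and CHH methylation by CMT2 in deep heterochromatin and by RNA-directed DNA methylation at its edges. A high CHG level is therefore a mark of silent, transposon-rich DNA, whereas CG methylation alone is not.

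A few stretches are shown because they hold the contrasts described in the following paragraphs. They were read from the plus strand of the TAIR10 assembly, 5′ to 3′, and a capital marks a cytosine, or a G opposite a cytosine of the other strand, that was methylated in 50% or more of the pooled WT calls, with at least 10 calls. The first lies in the 1 kb tile with the highest WT CHG level, the second in a tandem array with a high CG and a low CHG level for the knob, the third across the edge of methylation upstream of FIB, the most abundant transcript of the knob among those that responded to EL, and the fourth across the right border of the knob, where AT4G04670 starts.
Tile of highest CHG, chr4:2346111-2346310: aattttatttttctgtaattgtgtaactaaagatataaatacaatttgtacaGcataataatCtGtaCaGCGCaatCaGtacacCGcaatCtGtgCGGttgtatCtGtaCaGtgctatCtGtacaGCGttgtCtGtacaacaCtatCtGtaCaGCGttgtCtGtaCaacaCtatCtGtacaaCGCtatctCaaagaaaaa
Tandem array, chr4:1739191-1739390: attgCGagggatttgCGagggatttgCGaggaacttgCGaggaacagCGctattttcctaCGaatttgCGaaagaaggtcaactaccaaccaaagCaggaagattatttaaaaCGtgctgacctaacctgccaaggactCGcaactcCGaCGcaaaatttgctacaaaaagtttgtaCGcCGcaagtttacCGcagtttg
Upstream of FIB, chr4:1931233-1931482: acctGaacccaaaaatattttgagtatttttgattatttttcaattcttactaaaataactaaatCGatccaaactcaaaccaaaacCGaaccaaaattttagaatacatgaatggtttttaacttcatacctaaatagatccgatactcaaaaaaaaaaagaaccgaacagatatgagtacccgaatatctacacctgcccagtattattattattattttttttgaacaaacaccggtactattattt
Right border, chr4:2367184-2367483: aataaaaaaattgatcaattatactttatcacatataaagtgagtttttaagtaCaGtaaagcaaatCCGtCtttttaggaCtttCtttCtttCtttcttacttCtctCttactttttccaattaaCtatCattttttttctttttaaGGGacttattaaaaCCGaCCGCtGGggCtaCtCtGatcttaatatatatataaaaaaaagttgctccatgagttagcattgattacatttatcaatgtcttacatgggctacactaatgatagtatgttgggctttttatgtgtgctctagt

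In the first sequence 12 of 12 CG cytosines, 27 of 32 CHG cytosines and 6 of 27 CHH cytosines with at least 10 calls were capitals, and the pooled WT levels were 90.5%, 70.7% and 34.1%. In the tandem array 28 of 28 CG cytosines were capitals, against 1 of 13 CHG and 0 of 51 CHH cytosines. In the sequence upstream of FIB the capitals stop within the first part, and the rest of the run holds none. In the right border sequence 6 of 6 CG, 9 of 9 CHG and 15 of 70 CHH cytosines were capitals. None of the capitals stands in the part that leads into AT4G04670. That part holds no CG or CHG cytosine with at least 10 calls, so only its CHH cytosines could show the edge.

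Methylation in all 3 contexts was several times higher in the knob than in the euchromatic reference, in every plant. The weighted methylation level (methylated calls over all calls, at cytosines read at least 4 times) at CG sites was 69.0%, 69.2% and 67.2% for the WT plants, in the order of their replicate numbers. That of the strs2 plants was 68.6%, 69.7% and 68.9%. In CHG context the WT plants had 27.6%, 28.3% and 25.8%, beside 27.8%, 28.5% and 28.2% for strs2. The CHH level was 5.57%, 6.06% and 5.43% in WT and 5.13%, 6.18% and 5.49% in strs2. The plants therefore lay close together in each context, with WT-r3, the most deeply read plant, lowest among WT. In the reference the WT means were 20.7% ± 0.164 for CG, 3.65% ± 0.0655 for CHG and 1.57% ± 0.0260 for CHH sites (SD, n = 3).

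Within plants, the knob lay above the reference by 47.8 ± 0.710 percentage points at CG, 23.98 ± 0.891 at CHG and 4.08 ± 0.330 at CHH sites (SD, n = 6). The mean ratios of the knob to the reference were 3.27, 7.44 and 3.60. CHG context thus separated the regions most by ratio, and CG context most in percentage points. The knob was higher in 6 of 6 plants in each context, and the two-sided exact sign-flip test gave p = 0.03125, the smallest that 6 plants allow, which was also the adjusted value over 6 tests. The level of the unmethylated chloroplast genome, a measure of the background of unconverted cytosines, ran from 0.380% to 0.500% at CG sites, from 0.414% to 0.521% at CHG sites and from 0.434% to 0.586% at CHH sites. Between 72.2% and 86.4% of the CG cytosines of the knob were read at the required depth, with a mean depth of 6.70 to 8.72 calls and with 200226 to 311823 CG calls per plant.

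**Figure D1:**
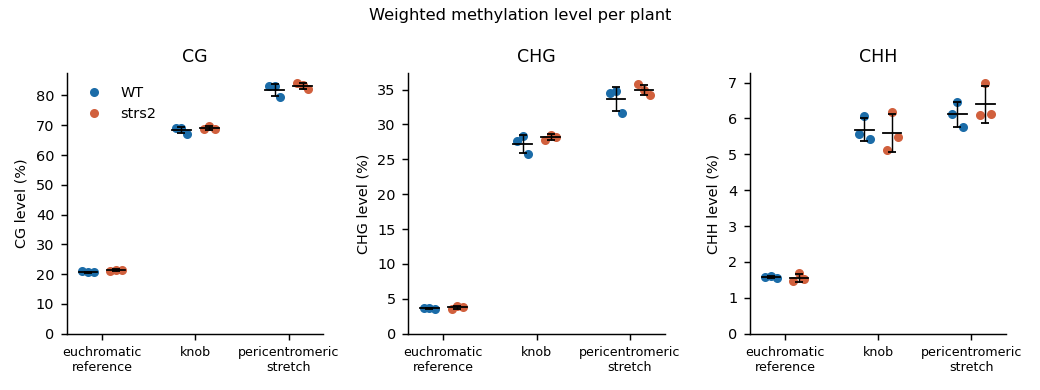
Weighted methylation level (%) of each plant in the euchromatic reference, the knob and a pericentromeric stretch of chromosome 4, in CG, CHG and CHH context. Points are plants, the horizontal line is the mean and the error bar 1 SD (n = 3). The knob (CG 67.2% to 69.7%) lies above the reference and below the pericentromeric stretch in every plant, and the genotypes overlap within the knob in each context.

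Against pericentromeric heterochromatin of the same chromosome and length (3 to 3.8 Mb), the knob was less methylated. The knob was lower by 13.8 ± 1.04 percentage points in CG, where WT reached 82.0% ± 2.05 in the pericentromeric stretch and strs2 83.3% ± 1.03. The CHG level was lower by 6.60 ± 0.779, against 33.7% ± 1.76 (WT) and 35.0% ± 0.747 (strs2) there. The CHH level was lower by 0.610 ± 0.243, against 6.11% ± 0.347 and 6.396% ± 0.509. All 6 plants showed each of these directions (exact sign-flip p = 0.03125, adjusted p = 0.03125 over 6 tests). The mean ratios of the knob to the pericentromeric stretch were 0.833 for CG, 0.808 for CHG and 0.903 for CHH sites.

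By CHG methylation, the borders of the knob stood in nearly the same place in every plant. A fit of 3 constant segments to the CHG level of 1 kb tiles from 0.8 to 2.6 Mb placed the left border of the mean WT profile at 1591001 and the right border at 2368000, a stretch of 777 kb. The mean of its tiles was 26.3%, against 5.23% to the left and 6.59% to the right. The left border was at 1591001 in all 6 plants, and the right border at 2368000 in 5 plants and at 2367000 in WT-r2. The strs2 minus WT difference was 0 bp at the left border and 333 bp at the right border, below the 1 kb step of the tiles (CHG, two-sided exact permutation p = 1 for each). Fitted to CG levels, the mean WT borders were 1592001 and 2367000, and fitted to CHH levels, 1593001 and 2368000. In these contexts the left border of 1 plant stood apart, WT-r2 at 1588001 by CG (1593001 in the other 5 plants) and WT-r3 at 1613001 by CHH (also 1593001 in the other 5). The left border difference was therefore 1667 bp by CG and -6667 bp by CHH, both above the tile step and each set by that plant (exact permutation p = 1 for each). The right border was the same in all 6 plants in either context. The last 9 kb of the euchromatic reference thus lay inside the fitted knob, and the last 32 kb of the knob window outside it.

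**Figure D2:**
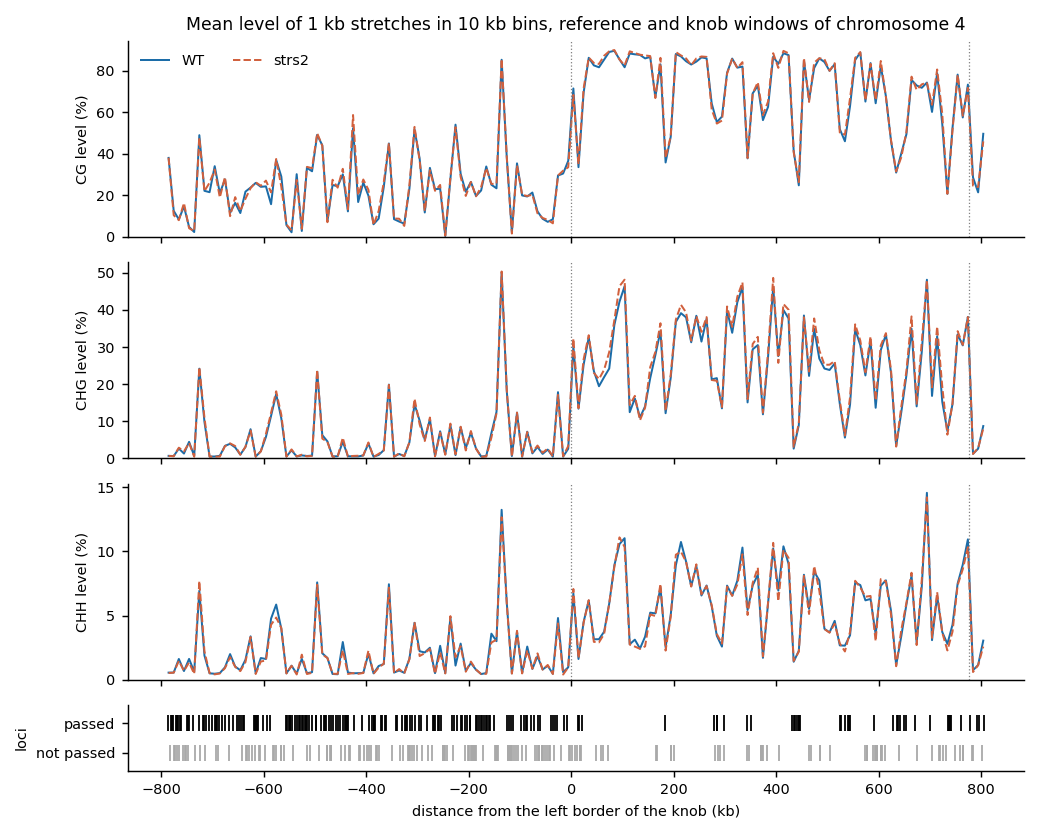
Mean level (%) of 1 kb tiles in 10 kb bins along the reference and knob windows, as distance from the left border (kb), in CG, CHG and CHH context, for WT (solid) and strs2 (dashed). Dotted lines are the fitted borders, and ticks mark loci that passed (black) or did not pass (grey) the expression filter. The WT and strs2 lines nearly coincide. Many dips within the knob lie near black ticks, but not all of them. The tandem array (1699001 to 1741000), which has lower CHG and CHH levels than the rest of the knob, holds no locus.

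The right border was the steeper of the pair. Over consecutive 1 kb steps across it, the pooled WT CHG level was 57.9% from 2 to 1 kb inside, 20.3% in the last kb inside and 0.646% in the first kb outside. The strs2 levels in the same steps were 59.6%, 21.9% and 0.506%. AT4G04670, annotated as a Met-10+ like and kelch repeat protein, starts at 2367434 and runs away from the knob, with a gene-body level of 47.6% in CG and 0.547% in CHG context, so the end of the knob fell at the promoter of a transcribed gene (mean RPKM 1.87, that is, reads scaled by locus length and library size). The loci next to it inside the knob, AT4G04650 (reverse transcriptase-related) and the long noncoding AT4G04945, had 50.5% and 46.2% CHG methylation and 0 reads in every library. AT4G04680 and AT4G04690, the next loci outside, had 0.671% and 0.485%.

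The left border was more gradual. The pooled WT CHG level was 14.5% from 3 to 2 kb outside, 2.95% in the next kb and 9.40% in the last kb outside, and then 19.7%, 16.5% and 50.4% in the first 3 kb inside. AT4G03570, annotated as a cystatin/monellin superfamily protein, spans this border (1590413 to 1594105) with 27.0% CHG methylation and 0 reads in all 12 libraries. Outside it, AT4G03566 (ribonuclease H) had 17.8% and AT4G03565 had 0.285%. TPC1, the vacuolar two-pore cation channel, is the nearest locus outside that passed the expression filter, with 0.367% CHG methylation and a mean RPKM of 20.9. Inside, AT4G03580 had 33.6%.

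An edge of the same kind lay upstream of FIB, deep inside the knob. FIB starts at 1931883 on the plus strand. In 200 bp steps, the pooled WT CHG level was 63.9% from 1000 to 800 bp upstream of that start, 50.6% from 800 to 600 bp, 1.94% from 600 to 400 bp and 0% from 400 to 200 bp. The strs2 levels were 64.3%, 37.1%, 1.76% and 0%. These steps held 89 to 341 calls per genotype, pooled over plants. The level thus dropped between neighbouring steps, before the transcript began, and the gene body of FIB had 0.464% CHG methylation in WT.

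**Figure D3:**
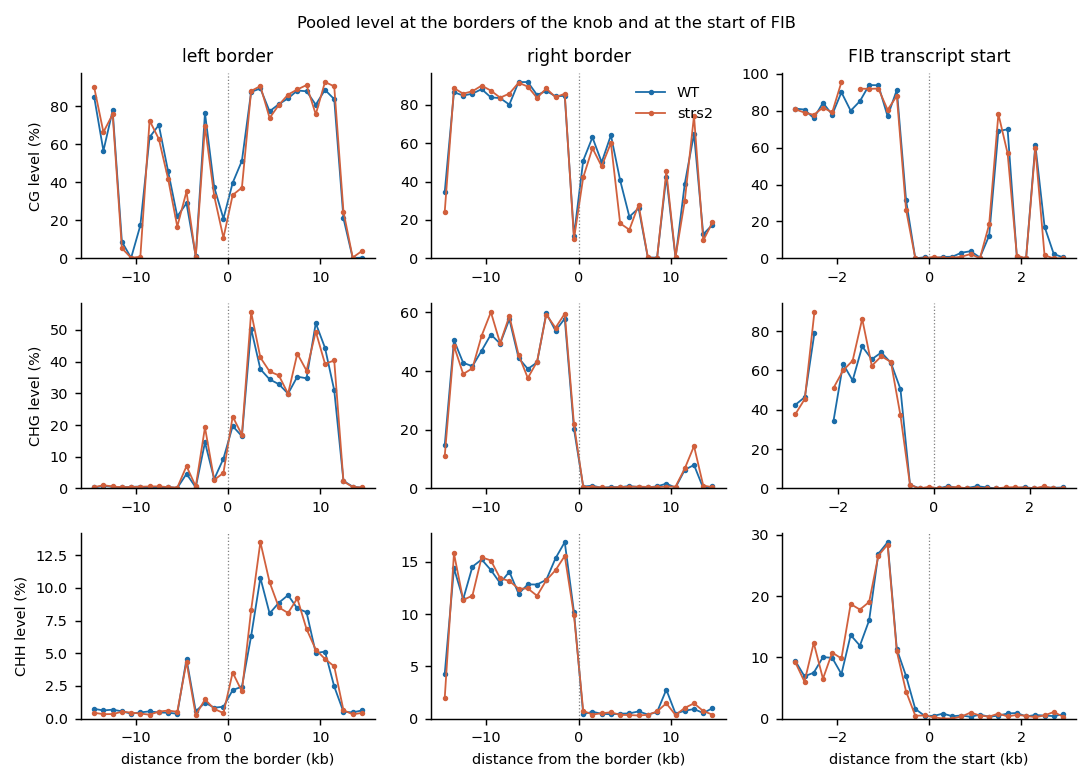
Pooled level (%) in CG, CHG and CHH context against distance from the left border and from the right border, in 1 kb steps, and from the transcript start of FIB, in 200 bp steps (kb), for WT (blue) and strs2 (orange). The CHG level falls from 57.9% to 0.646% over 3 steps at the right border, and a similar edge stands upstream of FIB in both genotypes.

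Sequence context ordered the levels in the knob much as in the pericentromeric stretch. Among CHG sites of WT plants, CTG (30.1% ± 1.66) and CAG (29.4% ± 1.30) were close to each other and CCG was lower (17.5% ± 0.768), in every plant. In the pericentromeric stretch the values were 37.3%, 36.5% and 20.9%, whereas in the reference the 3 kinds of site did not separate (3.60%, 3.68% and 3.72%). Among CHH sites of the knob, CTA (12.9% ± 0.905) and CAA (12.3% ± 0.793) stood apart from the other 7, which ranged from 1.19% (CCC) to 4.40% (CTC). In the pericentromeric stretch CAA (15.2%) and CTA (15.2%) also stood apart, with CTC next at 4.10%, but CTA was not above CAA. In the reference CAA and CTA were at 2.45% and 2.43%. In the chloroplast genome the WT CHH sub-contexts lay between 0.400% and 0.876%, with CAC highest, so the order in the knob was not that of the background.

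The knob differed from the reference in what it contained as well as in how each class was methylated. Loci of the count tables covered 18.6% of the knob and 66.5% of the reference. Annotated pseudogenes, which in this annotation include many transposon remnants, covered 35.1% of the knob (127 of them) and 4.15% of the reference (17). The pseudogenes of the knob were methylated at 84.3% ± 1.48 (CG), 39.2% ± 1.56 (CHG) and 8.20% ± 0.418 (CHH) in WT. Those of the reference were at 59.0%, 33.5% and 7.84%, close to the knob in the non-CG contexts. Sequence outside both classes was at 72.9%, 26.5% and 5.54% in the knob, against 21.6%, 9.02% and 3.17% in the reference. Loci were the least methylated class in both regions, at 34.0%, 6.48% and 1.73% in the knob and 18.3%, 1.08% and 0.711% in the reference.

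Single tiles of the knob spread over nearly the whole range. The median WT level of a tile was 83.6% for CG, 26.5% for CHG and 5.30% for CHH sites, against 8.75%, 0.536% and 0.530% in the reference. Of the knob tiles with enough calls, 626 of 793 were over 50% in CG, 465 of 794 over 20% in CHG and 159 of 794 under 5% in CHG context. In the reference 89 of 799 tiles were over 20% and 669 under 5% in CHG context, so that each region held a minority of tiles like the bulk of the other. Between the fitted borders, CHG and CHH levels followed each other closely across tiles (Spearman rho 0.893 over 771 tiles), and CG and CHG levels less so (rho 0.493 over 765 tiles). These are descriptions across neighbouring tiles of the same libraries that share their base composition.

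The highest CHG level belonged to the tile from 2346001 to 2347000, which holds no annotated locus or pseudogene. It was at 74.7%, 74.6% and 69.2% in WT and 77.8%, 82.4% and 73.3% in strs2, with 23.0% CHH methylation in WT. The tile from 1930001 to 1931000, which overlaps the end of the pseudogene AT4G04010 and lies upstream of FIB, had 66.1% CHG and 24.4% CHH methylation, the highest CHH level of the knob. The tile from 1694001 to 1695000, which begins at the end of the pseudogene AT4G03790, had 62.0% CHG methylation. In the tile from 2288001 to 2289000, which joins the pseudogene AT4G04560 to the start of CRK40, the CHH level was 21.4%. At the other end, the lowest CG levels were 0% at ATG8B (AT4G04620, an autophagy protein; 2329001 to 2330000), 0.0401% at AT4G03820 (1773001 to 1774000) and 0.0722% at MEE51 (AT4G04040, of the phosphofructokinase family; 1939001 to 1940000), all below the chloroplast background.

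Repeated sequence and base composition went with the level only in part. Outside the tandem array, the median WT CHG level was 17.8% in the 395 tiles with less than 10% repeated sequence (31-base words found elsewhere in the genome), 34.0% in the 239 tiles with 10% to 50% and 39.0% in the tiles with more than 50%. Across tiles between the borders, the CHG level had a Spearman rho of 0.316 with repeated sequence and 0.405 with GC content. In the reference the rho with GC content was -0.206.

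Low-methylated islands interrupted the knob, and most of them overlapped annotated loci. Between the borders, 24 runs of at least 3 tiles with a WT CHG level under 5% covered 106 kb, and the runs were 3 to 13 kb long. Their CHG levels were 0.334% to 2.397%, near the level of the reference, while their CG levels ranged from 0.661% to 49.3%. Of the 24 runs 22 overlapped annotated loci, and 32 of the 37 loci between the borders that passed the expression filter overlapped a run. The longest run (2123001 to 2136000) holds AT4G04340, which encodes the osmosensitive calcium channel OSCA1, EMB2369, a tRNA synthetase, and AT4G04360 and AT4G04370, with 46.4% CG methylation and 0.563% CHG methylation. The reference showed the reverse, with 12 runs over 10% CHG that covered 67 kb. The longest of these, 16 kb from 1448001 to 1464000, had 49.5% CHG methylation and no locus. The last run, 9 kb from 1591001 to 1600000, starts at the fitted left border and is thus part of the fitted knob.

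A tandem array within the knob combined more CG methylation with less CHG and CHH methylation than the rest of it. From 1699001 to 1741000 (42 kb) a 16-base word recurred 22 times at a median spacing of 1948 bp (1891 to 1960 bp), with no annotated locus or pseudogene. The CG level of the array was 87.7% ± 1.70 in WT and 88.4% ± 1.21 in strs2, above the 69.4% ± 1.18 of the rest of the knob between the borders in WT. The CHG level was 14.2% ± 0.715 in WT and 14.5% ± 0.603 in strs2, below the 28.6% ± 1.33 of the rest, and the CHH level 2.97% ± 0.293 against 5.98% ± 0.355. Its 21 units ranged from 6.93% to 22.0% CHG methylation in WT. Only 31.7% to 48.2% of the CG cytosines of the array were read at the required depth, against 74.9% to 89.0% in the rest, so the values describe the copies in which reads could be placed.

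Averaged over the knob, strs2 and WT did not differ beyond the spread between plants. The strs2 minus WT difference was 0.594 percentage points in CG (68.5% ± 1.09 in WT and 69.1% ± 0.559 in strs2, SD, n = 3, exact permutation p = 0.6). It was 0.937 in CHG (27.2% ± 1.29 and 28.2% ± 0.389, exact p = 0.3) and -0.0917 in CHH context (5.69% ± 0.332 and 5.60% ± 0.534, exact p = 0.9). Within the knob the plants of the genotypes overlapped in each context. The adjusted p was 0.9 for each of 12 exact permutation tests over the knob window, the fitted knob, the reference and the pericentromeric stretch. In the reference the CG levels of the genotypes did not overlap (20.7% ± 0.164 in WT and 21.3% ± 0.341 in strs2, exact permutation p = 0.1). With 3 plants against 3 the two-sided test cannot go below 0.1. The contrast of knob and reference differed between genotypes by -0.0366 points at CG (p = 1), 0.787 at CHG (p = 0.4) and -0.0769 at CHH sites (p = 0.8, all by exact permutation test). That of knob and pericentromere differed by -0.708 points at CG (exact p = 0.6), -0.366 at CHG (exact p = 0.7) and -0.376 at CHH sites. The CHH contrast was -0.423 ± 0.12 in WT and -0.798 ± 0.165 in strs2, groups that did not overlap (exact permutation p = 0.1, the smallest possible, adjusted p = 0.6 over 6 tests). The label of the strs2 plants was checked at the STRS2 locus on chromosome 5 (2794388 to 2797760). The longest gap between listed cytosines there was 46 to 97 bp in the strs2 plants, all at the same end of the locus, and 14 to 19 bp in the WT plants. STRS2 transcript was not measured in strs2 plants here.

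Single tiles did differ between the genotypes, in both directions. In CG context 28 of 792 knob tiles tested (3.54%) passed an adjusted p of 0.05 (edgeR quasi-likelihood test on methylated and unmethylated calls, over all nuclear tiles), 15 higher and 13 lower in strs2, against 7.43 percent of all nuclear tiles and 67 of 796 (8.42%) in the reference. In CHG context 7 of 790 knob tiles (0.886%) passed, 4 higher and 3 lower, against 0.296 percent of all tiles and 0 of 799 in the reference (30 at an unadjusted p under 0.05 and 0 by limma over the whole genome). In CHH context 0 of 800 knob tiles passed (30 at an unadjusted p under 0.05, and 0 by limma), against 0.0758 percent of all tiles. The share of tiles called in CG context was thus below the background, and the 7 CHG calls numbered 0 with limma and 3 without WT-r1. As strs2 was 1 line, differences due to STRS2 cannot be told apart from differences between lines. The CG calls numbered 14 with limma and 19 to 26 when 1 plant was left out.

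The CG calls lay mostly in tiles of low CHG methylation. In the 24 low-methylated runs 16 of 106 tested tiles were called (15.1%), against 12 of 686 of the other tiles (1.75%). Of all 159 tested tiles with a WT CHG level under 5%, 21 were called (13.2%), against 7 of 628 with 5% or more (1.11%). Of the tiles that overlapped an expressed locus 12 of 129 were called (9.30%), against 16 of 663 of the others (2.41%). The differences of the called tiles ranged from -22.8 to 48.7 percentage points.

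Of 19 tested tiles that overlap CRK36 to CRK40, cysteine-rich receptor-like kinases of stress and defence signalling, 5 were called in CG context (26.3%) and 0 in CHG context. Over all nuclear tiles the shares were 7.43 percent and 0.296 percent. Each of these genes overlaps a low-methylated run, and in such runs 15.1% of the tested tiles were called in CG context. The CRK group was singled out after the values were seen, so its share is a description and no test. At the end of CRK36 (AT4G04490; 2234001 to 2235000) the CG level was 7.35%, 7.09% and 6.41% in WT and 0.844%, 0.303% and 0.712% in strs2 (edgeR adjusted p = 1.01e-07). At CRK37 (AT4G04500; 2240001 to 2241000) it was 1.43%, 0.962% and 0% in WT and 8.28%, 13.2% and 8.77% in strs2 (edgeR adjusted p = 1.75e-06). Neighbouring paralogs thus differed in opposite directions, with no overlap between plants at either. CRK39 was lower in strs2 in 1 tile (42.2% to 27.5%), and CRK40 higher in a pair of tiles (0.391% to 4.32% and 2.06% to 6.95%).

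The largest difference among the called tiles of the knob was at AT4G04605, annotated as a Myb-like DNA-binding domain protein. In the tile from 2317001 to 2318000 the CG level was 40.0%, 20.3% and 41.3% in WT and 76.6%, 87.4% and 83.7% in strs2 (edgeR adjusted p = 3.54e-07), though on as few as 59 calls in a plant. The CHG level of the same tile was 6.12%, 4.23% and 4.48% in WT and 15.1%, 21.9% and 19.2% in strs2 (edgeR adjusted p = 2.94e-06). AT4G04605 did not pass the expression filter in WT. It was 1 of 4 tiles called in both contexts, and each of the 4 moved in the same direction in CG and CHG. The tile from 2398001 to 2399000, outside the right border, had a CHG level of 25.9%, 20.8% and 24.1% in WT and 11.1%, 7.49% and 6.82% in strs2 (edgeR adjusted p = 2.34e-05). The tile from 1995001 to 1996000 went from a WT mean of 16.1% to 5.30%, and that from 2137001 to 2138000, in the pseudogene AT4G04375, from 30.2% to 45.2% (edgeR adjusted p = 0.0183).

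Other called tiles lay in a pseudogene, in unannotated sequence and in a kinase gene. In the pseudogene AT4G04120 (1976001 to 1977000) the CG level was 4.03%, 2.13% and 3.37% in WT and 15.7%, 19.1% and 12.5% in strs2. In a tile without annotation (1784001 to 1785000) it was 12.6%, 9.40% and 17.4% in WT and 0.556%, 0.346% and 1.25% in strs2. At CPK21, a calcium-dependent protein kinase, the CHG level of the tile from 2396001 to 2397000 was 0.316%, 0.966% and 0.228% in WT and 5.03%, 4.90% and 3.40% in strs2, a low level that still lay above each WT plant and above the chloroplast background. No mRNA-seq of strs2 plants was analysed here, so these differences could not be set beside transcript levels.

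Fewer loci of the knob than of the reference were expressed. The expression filter was passed by 41 of 97 knob loci (42.3%), 142 of 263 reference loci (54.0%) and 54.5% of the other nuclear loci. Among protein-coding loci the shares were 51.4% (36 of 70), 67.5% (137 of 203) and 64.3%. Of the 16 long noncoding loci of the knob 1 passed. With a minimum of 0.1 CPM the shares were 53.6% in the knob and 62.7% in the reference. Only uniquely mapping reads had been counted, so loci made of repeated sequence could lose reads, and the part this had in the shares was not tested.

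Expressed loci of the knob had gene bodies almost free of CHG methylation. The median WT gene-body CHG level was 0.565% in the 41 loci that passed, with 37 under 5% and 0 over 20%, and 22.3% in the 54 measured loci that did not pass, with 28 over 20%. In the reference the medians were 0.476% and 0.486%, close to each other, with 1 of 142 loci that passed and 9 of 116 measured loci that did not pass over 20%. The CG medians of the knob were 18.7% in loci that passed and 82.9% in those that did not. Of the 41 expressed loci 20 lay within 1 kb of a tile over 20% CHG, at a median distance of 1145 bp. In the reference this held for 30 of 142, at a median distance of 5055 bp.

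On average, CHG methylation dropped across the start of these genes, though not each of them lay near methylated DNA. Of the 36 expressed protein-coding loci of the knob 19 lay within 1 kb of a tile over 20% CHG. Over all 36, the mean WT CHG level was 21.2% ± 0.849 from 500 to 250 bp upstream of the start, 10.5% ± 0.526 in the last 250 bp upstream, 2.48% ± 0.274 in the first 250 bp downstream and 0.442% ± 0.247 in the next 250 bp (SD over 3 plants). The strs2 means were 20.1%, 10.5%, 2.71% and 0.441%, a similar step. Beyond the transcript end the WT level was 2.69% in the first 250 bp and 12.5% from 750 to 1000 bp. The 34 protein-coding loci that did not pass showed no such step, with 16.7% ± 1.17 before and 17.0% ± 2.08 after the start. In the 137 expressed loci of the reference the level was 5.82% ± 0.190 from 500 to 250 bp upstream and 0.422% ± 0.0519 in the first 250 bp.

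**Figure D4:**
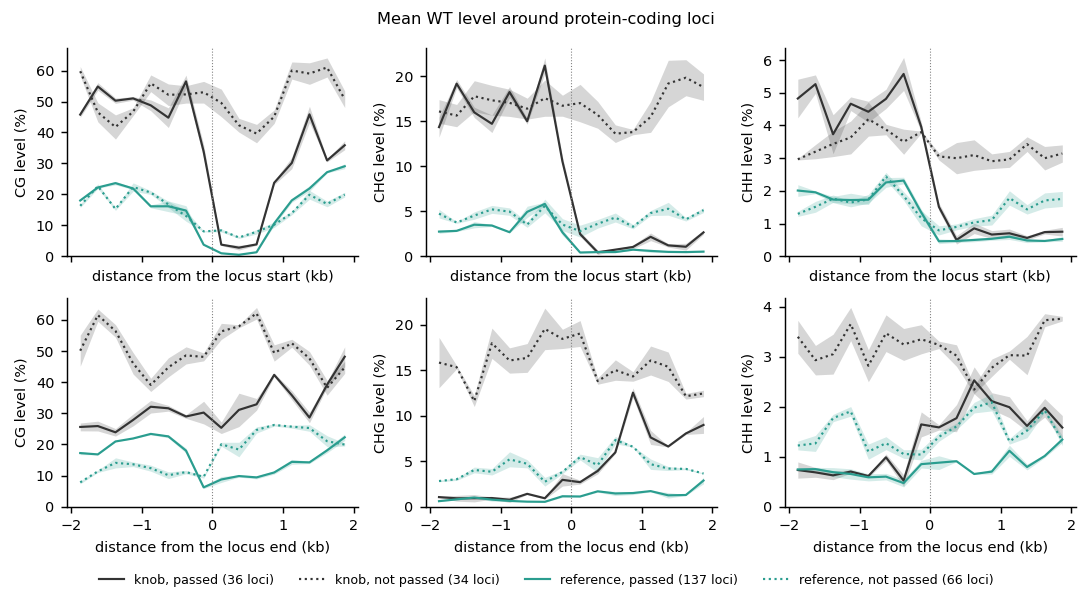
Mean WT methylation level (%) in 250 bp steps around the start and the end of protein-coding loci (distance in kb) in CG, CHG and CHH context. Lines are means over 3 plants and shading is 1 SD, for knob (black) and reference (green) loci that passed (solid) or did not pass (dotted) the expression filter. The solid black CHG line drops from 21.2% upstream to 0.442% within 500 bp of the start, and the dotted black line does not.

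A few expressed loci carried CHG methylation in their bodies. The noncoding locus AT4G04223 had the highest level, at 28.2%, 18.1% and 12.8% in WT and 28.5%, 30.2% and 24.2% in strs2. CRK40 followed with a WT mean of 6.74%, then AT4G03635 (an F-box and leucine-rich repeat protein) with 5.53%, the transcription factor gene WRKY42 with 5.06% and RbcX1 with 3.91%. The WT plants of AT4G04223 spread over more than 15 percentage points, so its level is the least certain of the 5.

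Transcript output of the knob was dominated by a pair of chloroplast protein genes. ATPC1, the gamma subunit of the chloroplast ATP synthase, had a mean RPKM of 1055 over the 10 libraries, and FIB, the plastoglobule protein fibrillin, 627. They took 27.4% to 58.3% and 10.14% to 54.4% of the knob reads of a library. The next loci by RPKM were PUX4 (a UBX domain protein, 39.9), RbcX1 (a chaperone of Rubisco assembly, 38.3), APR1 (APS reductase of sulfate assimilation, 34.2), AT4G04340 (31.7), MEE51 (27.3), EMB2369 (13.4), CRK40 (12.5) and CPK21 (10.8). ATPC1 is surrounded by heterochromatin, yet its gene body had 0.643% CG and 0.398% CHG methylation. Its CPM was 1351 and 1499 in N, 1115 and 1465 in N+T, 1329, 2081 and 2074 in P and 1405, 1840 and 1964 in P+T, with overlap between all groups.

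The libraries held 3665503 to 33081543 counts, with the smallest total in N+T-r3. Leaf genes were abundant in every library, as RBCS1A showed with 10959 to 20007 CPM. The light-harvesting genes CAB2 (529 to 7792 CPM) and LHCB2.1 (206 to 4457 CPM) varied more, also within P, where CAB2 had 1116 CPM in P-r1 and 7633 and 7792 in P-r2 and P-r3. By contrast, CASP1, CRA1, OLEO1, VGD1 and AP1, which mark root, seed, pollen and flower, were at or below 0.274 CPM. In bulk leaf samples, fewer cells of a type and less RNA per cell cannot be told apart. The methylation plants and the mRNA-seq plants were grouped separately, and methylation was not measured after EL here.

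Few of the knob loci were called after triggering, among them FIB. FIB had 424 and 486 CPM in N and 2185 and 2808 in N+T. In primed plants it had 458, 362 and 836 CPM in P and 1832, 1744 and 1834 in P+T. Each triggered library lay above each untriggered library in both comparisons. The log2 fold change was 2.47 (SE 0.389, FDR 0.0104) for naive and 1.71 (SE 0.310, FDR 0.0242) for primed plants (edgeR quasi-likelihood test, FDR over 17986 loci). The libraries left out gave 1162 CPM in N-r3 and 2744 in N+T-r3. With all 12 libraries the FDR was 0.0362 for N+T and 0.1004 for P+T. The FDR of N+T against N ranged from 4.46e-09 to 0.0996 over 15 alternatives and was over 0.05 without N-r1 (0.0857) or N-r2 (0.0996), and that of P+T against P ranged from 2.00e-06 to 0.1004, with 8 of 15 under 0.05. The interaction was -0.76 on the log2 scale and did not pass (edgeR FDR 0.442).

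PFA-DSP4 (AT4G03960), an atypical dual-specificity phosphatase, also rose in both comparisons. It had 7.11 and 5.50 CPM in N, 11.1 and 22.3 in N+T, 6.12, 4.22 and 4.45 in P, and 18.0, 17.1 and 22.5 in P+T. The groups did not overlap, and the log2 fold changes were 1.44 (SE 0.342, edgeR FDR 0.0307) and 1.96 (SE 0.281, edgeR FDR 0.0112). N-r3, which was left out, had 12.1 CPM and so overlapped N+T. The FDR of N+T against N ranged from 0.00129 to 0.208 over 15 alternatives (9 under 0.05) and that of P+T against P from 1.42e-08 to 0.0524 (14 under 0.05).

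The loci called lower by edgeR were noncoding and had few reads. AT4G04221, a long noncoding RNA antisense to the receptor-like protein gene RLP46, had 6.48 and 4.88 CPM in N and 1.65 and 2.25 in N+T, a log2 fold change of -1.49 (SE 0.366, edgeR FDR 0.0328). In primed plants it had 8.82, 6.14 and 5.85 CPM in P and 2.65, 4.79 and 4.02 in P+T, which did not pass the test (-0.85, edgeR FDR 0.125). The noncoding AT4G03935 had 5.41 and 5.79 CPM in N and 2.196 and 3.45 in N+T (-0.94, SE 0.262, edgeR FDR 0.0459), and 4.27 to 5.58 in P against 4.63 to 5.46 in P+T (-0.04, edgeR FDR 0.944). N+T-r3 had 6.84 CPM of AT4G03935, the highest of the 12 libraries, and with all 12 libraries its FDR was 0.462. For AT4G04221 N-r3 had 2.899 CPM and the FDR was 0.148. Over 15 alternatives 8 kept the FDR of AT4G04221 under 0.05 (range 0.00580 to 0.152) and 5 that of AT4G03935 (0.0277 to 0.462). The reads were counted by strand, which separates AT4G04221 from RLP46.

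Counted over the 41 tested knob loci, 4 passed in N+T against N (FIB and PFA-DSP4 higher, AT4G04221 and AT4G03935 lower), against 15.2 percent of all tested loci (7.74 percent higher and 7.43 percent lower). In P+T against P 2 of 41 passed, both higher, against 4.48 percent of all loci (2.05 percent higher and 2.44 percent lower). The share for N+T against N was 9.76%, below that of all loci, and that for P+T against P was 4.88%, near it. At an unadjusted p under 0.05, 16 of 41 knob loci passed in N+T against N, beside 6319 of 17986 loci. In P+T against P these counts were 11 of 41 and 3910 of 17986. The median log2 fold change of the knob loci was 0.01 and 0.03, beside -0.00 and -0.01 over all loci. Both comparisons moved with single libraries. The N+T count was 0 without N-r1 or N-r2, 2 without N+T-r1, P+T-r2 or P+T-r3 and 8 without P-r1, and with all 12 libraries it was 1. The P+T count was 1 without N-r1, N-r2, P-r2, P+T-r1 or P+T-r2, 0 without P+T-r3 and 4 without P-r1. DESeq2 called 12 and 6 of the 41, against 25.1 percent and 12.0 percent of all loci, so that with this tool neither share lay below that of all loci.

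No knob locus passed in the other comparisons, which asked whether priming alone or priming before triggering changed expression. In P against N 0 of 41 passed (1 at an unadjusted p under 0.05 and 0 with DESeq2), against 0 percent of all loci by edgeR and 1.88 percent by DESeq2. In P+T against N+T 0 passed (9 at an unadjusted p under 0.05 and 1 with DESeq2), against 0 percent by edgeR and 3.98 percent by DESeq2. In the interaction 0 passed (3 at an unadjusted p under 0.05 and 0 with DESeq2), against 0.00556 percent by edgeR and 4.19 percent by DESeq2.

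**Figure D5:**
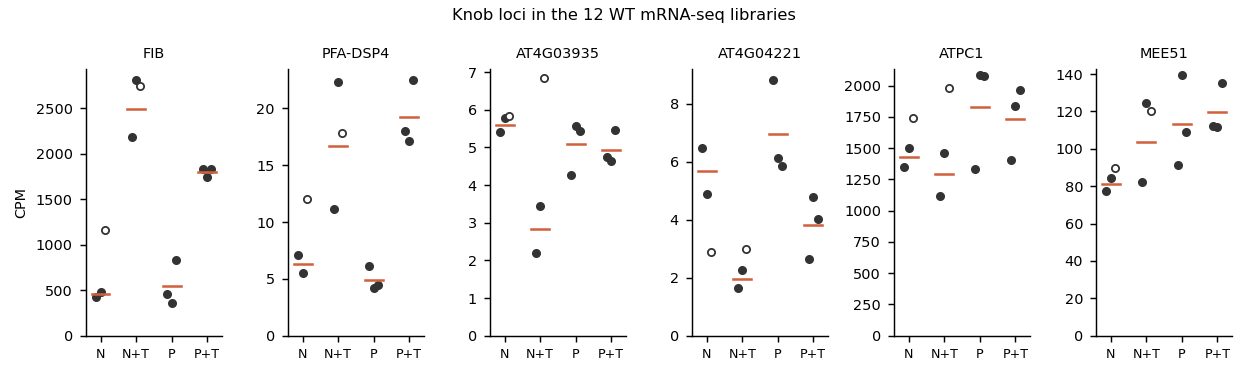
CPM of 6 knob loci in the 12 WT libraries by group (N, N+T, P, P+T). Filled points are the 10 libraries tested, open points N-r3 and N+T-r3, and bars the means of the libraries tested. FIB and PFA-DSP4 are higher in every tested triggered library than in any tested untriggered one, and ATPC1 overlaps between groups.

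The CRK cluster varied widely between libraries of a group, and its genes were taken up here after their values were seen, because called tiles lie in them. CRK36 had 8.49 and 4.65 CPM in N and 59.1 and 46.3 in N+T, but 2.97 in N+T-r3 (log2 fold change 3.03, edgeR FDR 0.0621). CRK37 (3.91, edgeR FDR 0.0680), CRK38 (2.95, edgeR FDR 0.114) and CRK39 (3.45, edgeR FDR 0.0856) had positive values that did not pass either, and CRK40 had -0.72 (edgeR FDR 0.447). In P+T, P+T-r1 alone was high for CRK36, with 23.95 CPM against 4.90 and 6.89. These paralogs lie side by side and share sequence, so their counts may be incomplete. AT4G04223 (1.18, edgeR FDR 0.0503) and APR1 (1.41, edgeR FDR 0.156) also missed the threshold in N+T against N.

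The summed output of the knob was higher after triggering, but not when FIB was left out. Summed over its loci and scaled to the nuclear counts, the knob had 2773 and 3111 CPM in N, 3881 and 5210 in N+T, 2980, 3332 and 3766 in P and 4167, 4256 and 4500 in P+T. Without FIB the values were 2311 and 2578 in N, 1798 and 2374 in N+T, 2457, 2994 and 2970 in P and 2265, 2546 and 2715 in P+T, and the triggered libraries no longer lay above the untriggered ones. Without both ATPC1 and FIB, the values were 838 and 933 in N, 735 and 895 in N+T, 937, 1052 and 996 in P and 807, 742 and 802 in P+T, so that each P+T library lay below each P library, while N and N+T overlapped. These sums carried no TMM factors and were not tested.

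Genes of the machinery that maintains such heterochromatin were looked at as a list. Of a list of 24 genes for DNA methylation and heterochromatin, all tested, VIM1 (a cofactor of MET1) rose and HTA6 (a histone H2A.W variant) fell in N+T against N, 2 of 24 beside 15.2 percent of all loci. VIM1 had 11.01 and 9.40 CPM in N and 34.7 and 27.5 in N+T (log2 fold change 1.63, SE 0.231, edgeR FDR 0.00832), and HTA6 had a log2 fold change of -0.60 (edgeR FDR 0.0445). In P+T against P 4 of 24 rose and 0 fell, beside 4.48 percent of all loci (2.05 percent higher and 2.44 percent lower). These were VIM1 (2.15, edgeR FDR 0.00493), MET1 (0.80, edgeR FDR 0.0424), KYP, listed as SUVH4 (0.70, edgeR FDR 0.0375) and CMT3 (0.65, edgeR FDR 0.0424). MET1 and CMT3 maintain CG and CHG methylation, and KYP the histone mark that CMT3 binds. The median of the list was -0.25 for the triggering of naive plants and 0.11 for that of primed plants, beside -0.00 and -0.01 over all loci. No member passed in the other 3 comparisons. The 4 that rose were lower in P than in N, without passing (edgeR FDR 0.261 to 0.555). The log2 fold changes of P against N were -0.84 (VIM1), -0.81 (MET1), -0.40 (KYP) and -0.92 (CMT3). CMT3 had 15.04 and 14.6 CPM in N (3.17 in N-r3), 7.23 to 8.79 in P and 10.7 to 13.04 in P+T. Over all loci, calls in P+T against P ranged from 77 (without P+T-r3) to 2242 (without P-r1), with 155 for all 12 libraries. Whether the 4 genes would stay called was not tested. N-r3 and N+T-r3, left out of the test, had 1.02 and 44.0 CPM of VIM1.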

How the data were processed

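The authors made per-cytosine tables of methylated and unmethylated read counts for each plant with Trim Galore 0.3.7, Bismark 0.14.5 and Bowtie2 2.2.9 on TAIR10, and listed cytosines read at least 3 times. The deposited mRNA-seq tables hold raw read counts per Araport11 locus, made by the authors with Subread 1.6.2 and strand-specific featureCounts. Columns are not normalised. Reads that map to several places can be lost from both kinds of table.

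Levels were summed over cytosines with a depth of 4 or more. Tiles were tested with at least 20 calls in each plant, and loci where 3 or more of the 12 libraries exceeded 1 CPM, by edgeR 4.0.16 quasi-likelihood tests (R 4.3.3) with Benjamini-Hochberg adjustment over all nuclear tiles or loci. Libraries were scaled by TMM, and N-r3 and N+T-r3 were left out because the study had left them out. Regional levels were compared by exact permutation and sign-flip tests coded in Python 3.11.15 with numpy 2.4.6. limma 3.58.1 and DESeq2 1.42.0 were alternatives. The edgeR tests and the border fit were tested on simulated data. The sequences come from the RefSeq TAIR10.1 chromosomes, against which at least 99.9934% of the listed nuclear cytosines matched in context, and names from the RefSeq annotation, in which 2 knob loci had no match. Pseudogenes are those of that annotation. No class of transposable elements was used here.

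Named loci were the 10 with the highest RPKM, those called, the 5 nearest each border and the 5 expressed ones with the highest gene-body CHG level. Named tiles were the 3 highest in CHG and CHH, the 3 lowest in CG, and up to 5 called tiles per context. Other called tiles and the CRK genes were named after their values were seen. The members, gene lists and tests were chosen with earlier results of these data known. Replicates are independent plants per the study's methods. Errors are SDs between plants, and values pooled over plants carry none.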

Additional observations from a re-analysis of the deposited data

How the results depend on the processing

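Of 415 alternatives 299 were counted as unchanged, and of the 185 that did not leave out a further sample 154 were. Unchanged meant the same direction and side of the threshold, or a value within its spread. A count of called tiles or loci was taken as unchanged within a fixed ratio of the reported count. Such counts include comparisons of 0 with 0. Small genotype differences of the regional contrasts changed sign without passing a test. The strs2 minus WT difference of knob minus reference in CG context was 0.0832 at a minimum depth of 3, 0.392 at a depth of 10 and 0.280 as a mean over tiles, and in CHH context 0.000205 as a mean over tiles. That of knob minus pericentromere in CG context was 0.579 at a depth of 10. The left border moved to 1592001 with CG, 1593001 with CHH, 1590001 with 5 kb tiles, 1592501 with 500 bp tiles and 1592001 at a depth of 10, and the right border to 2367000 with CG and 2370000 with 5 kb tiles. The left border difference was 1667 bp with CG, -6667 bp with CHH and -667 bp at a depth of 10, and the right border difference -333 bp at a depth of 10. limma called 14 knob tiles in CG and 0 in CHG context. With all 12 libraries 1 knob locus was called for N+T against N and 1 for P+T against P, and with DESeq2 12 and 6, and 1 in P+T against N+T. The share of loci passing was 53.6% in the knob and 62.7% in the reference at 0.1 CPM, and 67.5% in the reference for protein-coding loci. The cause of these shifts was not tested.

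Leaving out 1 plant, the strs2 minus WT difference of the knob ranged from -0.0297 to 0.956 in CG, 0.227 to 1.48 in CHG and -0.382 to 0.144 in CHH context. Knob minus reference ranged from 47.6 to 48.0, 23.9 to 24.3 and 3.99 to 4.16, and knob minus pericentromere from -14.1 to -13.5, -6.76 to -6.33 and -0.668 to -0.541, with the same sign in every plant, though 5 plants cannot give p under 0.0625. The genotype difference of knob minus reference ranged from -0.625 to 0.384, 0.114 to 1.31 and -0.303 to 0.110, that of knob minus pericentromere from -1.19 to -0.0638, -0.754 to 0.227 and -0.460 to -0.295, and that of the right border from 0 to 500 bp. Called tiles numbered 19 to 26 in CG and 3 to 6 in CHG context, and called loci 0 to 8 for N+T against N and 0 to 4 for P+T against P.

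Same-numbered samples did not deviate together in every pair (correlations of -0.0120 to 0.0510 for methylation and -0.327 to 0.412 for mRNA-seq). The r1 mRNA-seq libraries correlated positively in each pair (0.148 to 0.367). Pairs of r2 libraries went both ways (-0.184 to 0.412), and the r3 pair was at -0.327. Whether samples of the same number shared a batch was not tested. With a replicate block the genotype differences of the knob were 0.594 (exact sign-flip p = 0.5), 0.937 (p = 0.25) and -0.0917 (p = 1), tiles called were 27, 4 and 0, and loci called were 4 and 2. Under the block PFA-DSP4 (edgeR FDR 0.0511) and AT4G04221 (edgeR FDR 0.0551) in N+T against N missed the threshold. The mean depth of 6.57 to 8.87 calls per cytosine and the 3 plants per genotype limit what single tiles can show.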
